A study of Canis lupus familiaris with 16 samples.

Results

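IMMP2L, FHIT, MACROD2, LRP1B and DMD are very large genes that span chromosomal fragile sites in people. In the dog data described here they were followed through the methylation peaks that the study's authors assigned to them, taking each peak whose gene symbol was 1 of these 5. This gave 119 of the 145240 peaks in the 4 deposited lists (0.0819%), and each of the 5 genes had at least 1 peak in every list. MethylCap-seq, the assay used, pulls down DNA fragments that carry methylated cytosines and sequences them, so a peak marks a stretch of methylated DNA. The lymphoma group was 5 dogs aged 5 to 13 years with high-grade B-cell lymphoma (a schnauzer, a dachshund, a golden retriever, a dog of mixed breed and a dog whose breed is not given), whose tumour cells came from lymph nodes by needle aspiration. The healthy group was 3 dogs aged 2 to 7 years (a golden retriever, a standard poodle and a dog of mixed breed), whose blood mononuclear cells were used. Every dog contributed a library named L and a library named M-H, names whose meaning the labels leave out, and the deposited peaks are 1 pooled list per group and library name. The disease, the tissue and the age range all differ between the groups and cannot be told apart, and any difference below is between 2 pooled lists with no spread between dogs and no test.

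Common fragile sites are regions where chromosomes tend to break when DNA replication is slowed, and many lie inside very long genes. FHIT encodes a hydrolase of dinucleoside polyphosphates and is a classic fragile-site tumour suppressor that is deleted in many carcinomas. LRP1B encodes a large endocytic receptor of the LDL receptor family that is often deleted or mutated in human tumours. MACROD2 encodes an enzyme that removes ADP-ribose from proteins, IMMP2L a subunit of a protease that trims proteins entering the space between the mitochondrial membranes, and DMD the muscle protein dystrophin. DNA methylation at a CpG-rich start of a gene usually goes with silencing, whereas methylation inside introns is common in active and inactive genes alike. Capture of methylated DNA favours places where methylated CpGs lie close together, so isolated methylated CpGs in long introns can go unseen.

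The lymphoma and healthy lists held 45623 and 44811 peaks in L and 34939 and 19867 in M-H. The authors' fold enrichment, a ratio of the signal in a peak to a background, began at 6 in each list, and the median was 8.92 and 7.77 in L and 10.1 and 8.14 in M-H. A place without a peak may therefore hold methylated DNA at a lower enrichment. Part of the fold values fell on evenly spaced steps, of 0.246 in lymphoma L, 0.409 in healthy L, 0.275 in lymphoma M-H and 0.742 in healthy M-H. The meaning of a step is not stated, and smaller differences between such peaks are not resolved. Fold enrichment is used below mainly to rank peaks within 1 list, as the percentile of a peak among all peaks of that list. The exception is a cut at 1 fold value in both lists, for which the same cut over all peaks is given. Lists of different lengths make percentiles of 2 lists no measure of change, and they are given side by side as description. The lists combine cells of all kinds in a sample, so methylation in a few cells and weak methylation in many cannot be told apart, and depth per library is unknown.

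MACROD2 had the most peaks of the 5 genes in every list and IMMP2L the fewest. MACROD2 had 16 peaks in lymphoma L, 15 in healthy L, 11 in lymphoma M-H and 9 in healthy M-H. DMD had 7, 9, 6 and 6 in the same order. FHIT had 5, 8, 3 and 2. LRP1B had 4, 4, 4 and 3. IMMP2L had 3, 2, 1 and 1. Within L the lymphoma list had more peaks for IMMP2L and MACROD2, fewer for FHIT and DMD, and as many for LRP1B. Together the lymphoma lists held 35 of the 73 L peaks of these genes (47.9%, 95% Wilson interval 36.9 to 59.2) and 25 of the 46 M-H peaks (54.3%, 40.2 to 67.8). Over all peaks the lymphoma lists held 50.4% in L and 63.8% in M-H, values inside both intervals. All intervals here cover counting error only. When peaks under 12-fold were left out of both lists, the lymphoma share was 70.0% in L (14 of 20, 48.1 to 85.5) and 76.0% in M-H (19 of 25, 56.6 to 88.5). The same cut gave lymphoma shares of 76.3% and 84.4% over all peaks, inside both intervals.

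**Figure D1:**
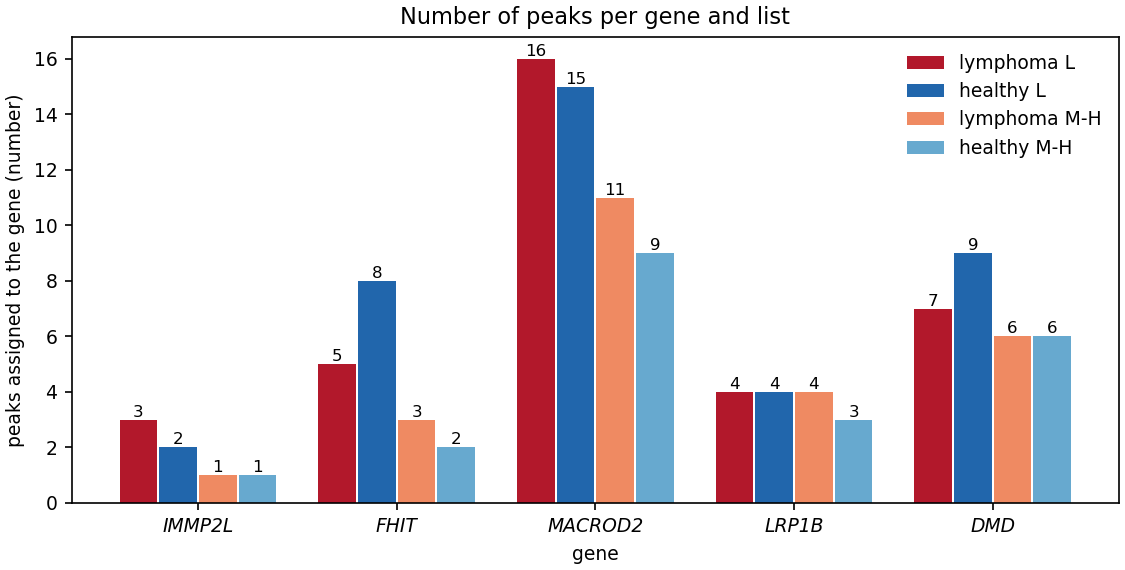
Number of peaks assigned to each gene (vertical axis) in each of the 4 pooled lists (bars). MACROD2 reaches 16 peaks in lymphoma L and 9 in healthy M-H, and IMMP2L stays between 1 and 3.

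The peaks of the 4 lists fell on the same places along these genes more often than elsewhere. Joined where they shared at least 1 bp, the 119 peaks made 44 loci, of which 19 (43.2%, 29.7 to 57.8) had a peak in all 4 lists, 5 in 3 lists, 8 in 2 and 12 in 1. Over all loci of the genome 17.1% had a peak in all 4 lists, and over intronic loci outside CpG islands and their shores 12%. Among the 184 other genes with an assigned peak at least 500 kb from their start, a threshold chosen with the data in view, it was 19.9% of 2741 loci. At the 19 loci the peak centres of the 4 lists lay 20 to 238 bp apart, with a median of 60 bp. The lowest folds at these loci were 6.40 in lymphoma L, 6.13 in healthy L, 6.87 in lymphoma M-H and 6.74 in healthy M-H. These are near the lowest fold listed, 6, and the count of 19 was not repeated under a stricter fold. Peaks at the 19 loci had median percentiles of 83.2 in lymphoma L, 73.5 in healthy L, 86.7 in lymphoma M-H and 68.7 in healthy M-H. Peaks at all loci of the genome found in the 4 lists had 80.4, 67.3, 77.9 and 64.9 in the same order, and those at intronic ones outside islands and shores 86.0, 76.8, 82.3 and 70.2, so a high rank was general to such loci. Loci in all 4 lists were 3 of 5 in LRP1B, 5 of 10 in DMD, 8 of 17 in MACROD2, 2 of 8 in FHIT and 1 of 4 in IMMP2L. These counts are small and the intervals of the 5 genes overlap (LRP1B 23.1 to 88.2, IMMP2L 4.56 to 69.9).

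**Figure D2:**
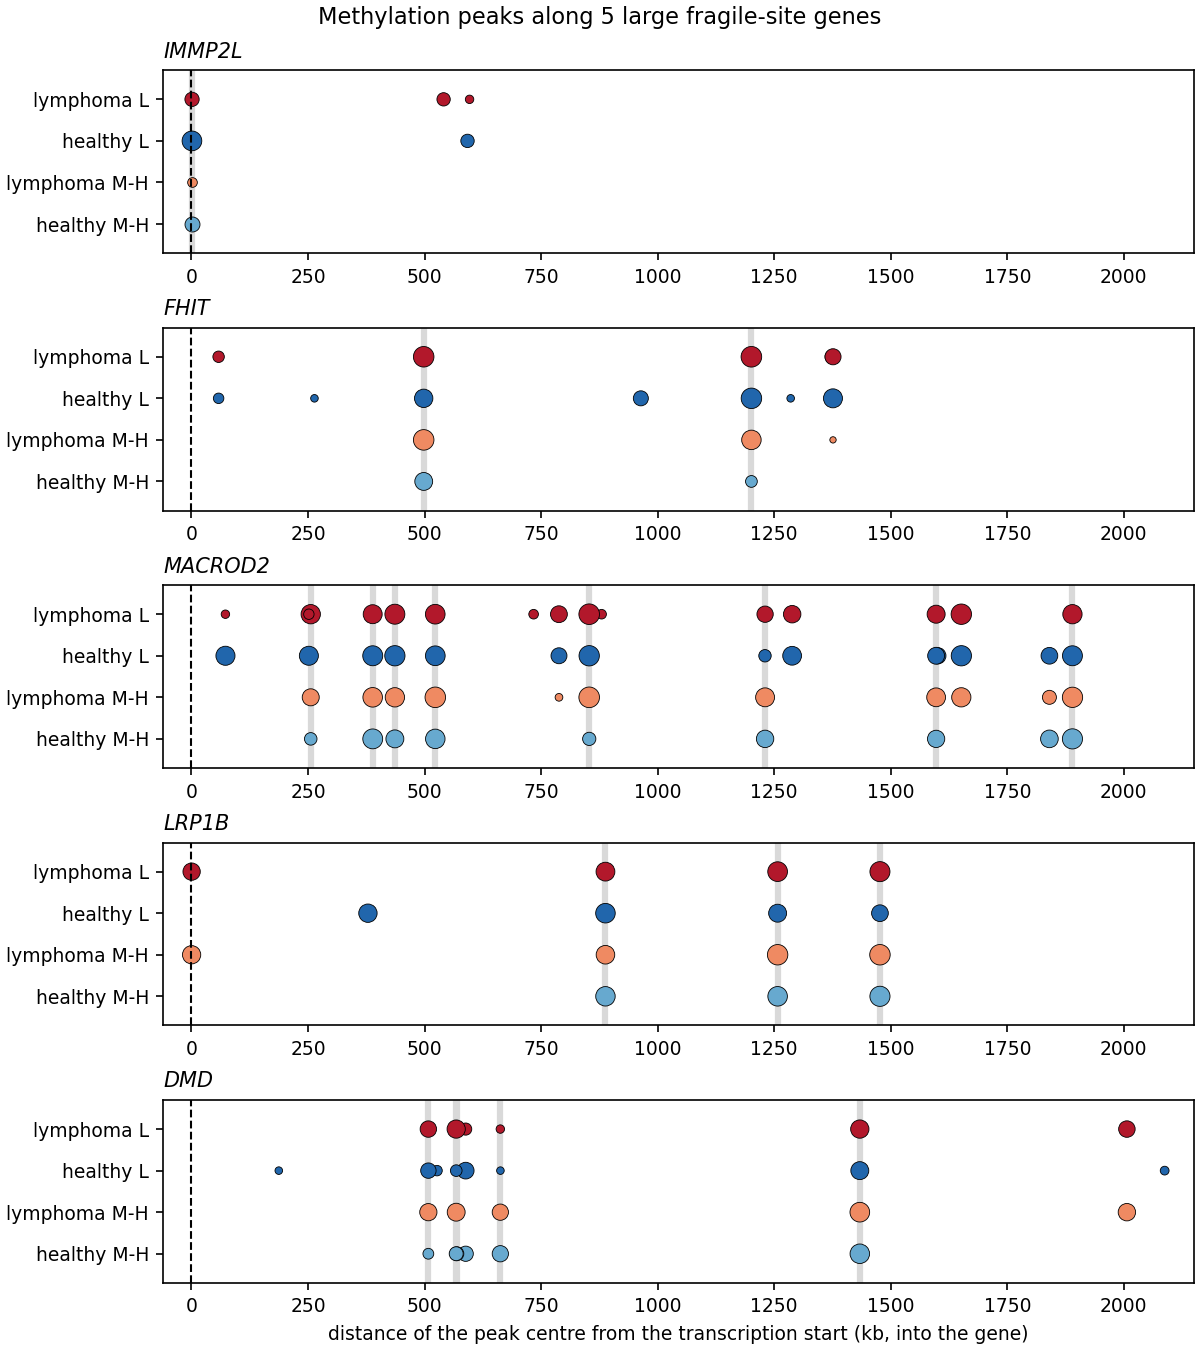
Peaks (dots) of each list (rows) by distance of the peak centre from the transcription start, in kb into the gene; larger dots rank higher by fold enrichment within their list, and grey lines mark loci with a peak in all 4 lists. Of 44 loci 19 are in all 4 lists, and only IMMP2L and LRP1B have a peak near the start (dashed line).

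FHIT carried 2 intronic loci that were shared by all lists and strongly enriched in the lymphoma lists. Its other peaks were mostly in the L lists and were weaker than these 2 in lymphoma, though not always in healthy cells. The first lay 498.2 kb into the gene at chromosome 20, 30233213 to 30233969 (CanFam3.1). Its fold enrichment was 20.1 in lymphoma L, 9.81 in healthy L, 21.2 in lymphoma M-H and 9.93 in healthy M-H, which put it at percentiles 98.9, 77.5, 99.0 and 72.7 of those lists. The second lay 1201.2 kb in, at chromosome 20, 30936177 to 30936984. It had 22.6, 14.6, 17.1 and 7.01, the last at percentile 26.5 of the healthy M-H list. Both places thus had a peak in tumour and in blood cells. A locus 1376.2 kb in had peaks in the L lists (9.62 in lymphoma, 10.5 in healthy) and in lymphoma M-H (6.05). Loci at 58.3 and 1373.1 kb were in the 2 L lists only, with folds of 6.54 to 7.72 (healthy 6.54 and 7.42, lymphoma 7.14 and 7.72). Loci at 263.9, 964.0 and 1285.4 kb were in healthy L alone, with folds of 6.13, 7.77 and 6.13. No FHIT locus of 8 was in lymphoma lists only (0 to 32.4% by the Wilson interval), against 23.9% of all loci, a value inside that interval. The peak nearest to the FHIT start was 58.1 kb away, in healthy L.

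LRP1B carried 3 strong intronic loci in all lists and a peak over its start in both lymphoma lists. The shared loci lay 888.1, 1257.4 and 1476.9 kb into the gene on chromosome 19, at 43538967 to 43539864, 43169755 to 43170478 and 42950229 to 42950958. The first had fold enrichments of 13.3 in lymphoma L, 11.3 in healthy L, 15.1 in lymphoma M-H and 11.9 in healthy M-H. The second had 15.3, 9.41, 20.4 and 12.1 in the same order, and the third 16.7, 8.59, 20.7 and 13.7. All 12 of these peaks were above the median fold of their list, the lowest of them at percentile 62.7. A peak 378.6 kb in, at 44048757 to 44049108, was in healthy L alone, with 9.81. That value, at percentile 77.5 of its list, was the highest of the 8 loci seen in healthy L alone across the 5 genes.

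The start of LRP1B was covered in lymphoma and in no healthy list. In lymphoma L the peak ran from 44426574 to 44427657 on chromosome 19 and spanned the transcription start, recovered at 44427492, with a fold enrichment of 10.9 (percentile 67.9). In lymphoma M-H it ran from 44426654 to 44427496 with 14.4 (percentile 76.5). Both peaks were annotated as intron, and the authors flagged them as lying at a transcription start, in a promoter and on a CpG island shore. In the healthy L list the nearest peak was 47.2 kb upstream of the start, an intergenic one with 6.73, and in healthy M-H it was 47.8 kb upstream with 9.61. Both lymphoma lists had a peak at that upstream place too, with 6.75 in L and 10.4 in M-H. Into the gene, the first healthy peak was 378.4 kb from the start in L and 887.7 kb in M-H.

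A promoter peak was taken as a peak overlapping 1 kb either side of the start. By this measure LRP1B was covered in lymphoma only in both L and M-H, like 16.0% of 18147 genes in L and 18.7% in M-H. IMMP2L was covered in healthy only in both L and M-H, like 3.85% of genes in L and 0.716% in M-H. FHIT, MACROD2 and DMD had no promoter peak in any list at the 1 start recovered for each, and any other starts of these genes were not examined. The share of all genes without a promoter peak in any list is not given here, so this absence cannot be called particular to them. LRP1B was covered in lymphoma only under every alternative tried for the promoter, namely 500 bp either side, 2 kb upstream to 500 bp downstream, and absence of a healthy peak over 5 kb either side. The call for IMMP2L was lost under all 3.

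The IMMP2L peaks behind that call were a single locus present in all 4 lists. It lay 1.1 kb into the first part of the gene at chromosome 14, 51335301 to 51336253, annotated as intron and flagged as CpG island shore. The healthy L peak ran from 51335318 to 51336253 and came within 653 bp of the start (51336906), so 348 bp of it were inside the 1 kb window. The healthy M-H peak ended at 51335933, 973 bp from the start, with 28 bp inside. The lymphoma L peak ended at 51335849, 1057 bp away, and so missed the window by 57 bp. The lymphoma M-H peak ended at 51335866 and missed it by 40 bp. Fold enrichments were 8.37 in lymphoma L, 11.6 in healthy L, 6.87 in lymphoma M-H and 8.09 in healthy M-H. Those values stood at percentiles 43.2, 90.4, 15.1 and 48.6 of their lists. The rest of IMMP2L held 3 loci, each in 1 list. Those at 596.6 kb (6.40) and 540.9 kb (7.88) were in lymphoma L, and the one at 592.2 kb (7.25) was in healthy L.

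**Figure D3:**
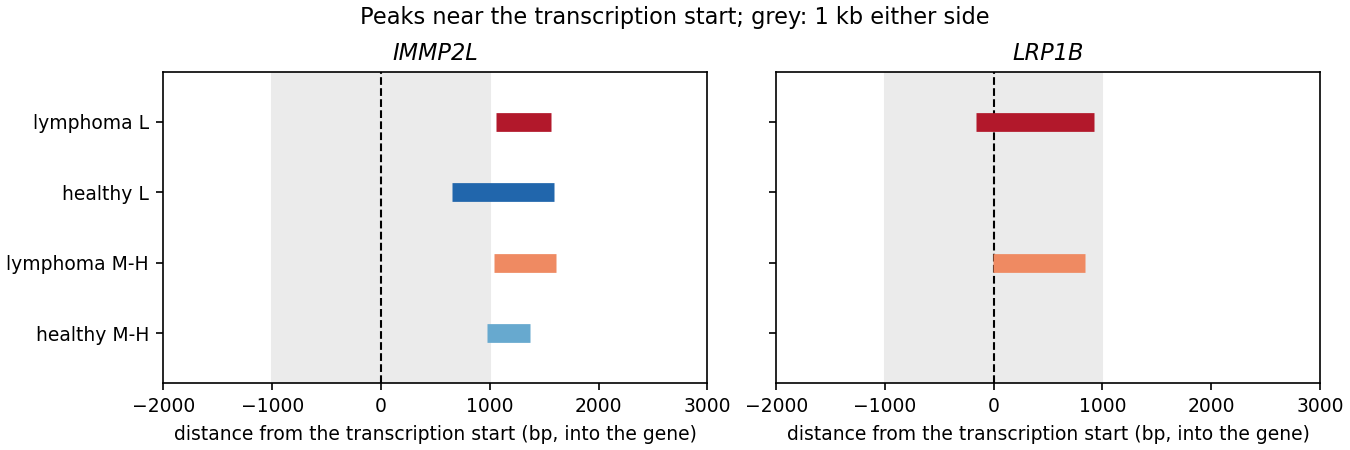
Extent of the peaks (bars) of each list around the transcription start of IMMP2L and LRP1B, in bp into the gene; the grey band is 1 kb either side of the start. The IMMP2L peaks of the 4 lists overlap one another at the edge of the band, where the lymphoma peaks miss it by 57 and 40 bp, while LRP1B has a peak over its start in the lymphoma lists and none in the healthy lists.

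MACROD2 had the highest share of loci with a peak in both groups among the 5 genes. Of its 17 loci 15 had a peak in both groups (88.2%, 65.7 to 96.7), against 52.1% of all loci in the genome, and none was in healthy lists only. The 8 loci in all 4 lists lay 255.9 to 1889.8 kb into the gene, on chromosome 24. The locus at 853.2 kb, 7819943 to 7820632, had the highest fold of MACROD2 in the L lists (21.7 in lymphoma, 13.6 in healthy) and in lymphoma M-H (22.2), at percentiles 99.6, 97.0 and 99.7. In healthy M-H it had only 7.42, at percentile 36.0. The locus farthest from the start, 6783275 to 6784089, had 14.2, 12.3, 19.6 and 13.7, and was high in each list, at percentiles of 86.2, 92.8, 96.4 and 94.9. The locus at 523.0 kb, 8150081 to 8150880, had 15.2, 11.7, 21.2 and 12.

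The other 9 MACROD2 loci lacked a peak in at least 1 list, 4 of them being in the L lists only and 2 in lymphoma L alone. The locus at 1651.5 kb, 7021686 to 7022450, had a strong peak in the L lists (18.8 in lymphoma, 13.2 in healthy) and in lymphoma M-H (16.5) and none in healthy M-H. The locus at 1840.4 kb was in healthy L (8.59), lymphoma M-H (9.07) and healthy M-H (9.74) and not in lymphoma L. The locus nearest to the start, 73.0 kb in, was in the L lists only, with 6.40 in lymphoma (percentile 9.41) and 10.6 in healthy (percentile 84.4). Its neighbour at 251.9 kb, also in the L lists only, had 6.88 (percentile 18.9) and 10.6 (percentile 83.8). Of the L-only loci farther in, that at 1288.6 kb had 11.1 in lymphoma and 10.2 in healthy cells and that at 1600.9 kb had 8.10 and 8.35. The locus at 788.4 kb was absent from healthy M-H alone, with 10.3 in lymphoma L, 8.18 in healthy L and 6.32 in lymphoma M-H. Peaks at 734.0 and 879.8 kb were in lymphoma L alone, each with 6.65 at percentile 14.9. Peaks named for LOC102151160 lay between MACROD2 loci, one of them in all 4 lists, annotated as an intron of that gene, with 15.2, 10.2, 17.9 and 7.04. RefSeq's annotation of another dog assembly, UU_Cfam_GSD_1.0, lists LOC102151160 as a long non-coding RNA.

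DMD, on the X chromosome, had 6 of its 10 loci between 508.3 and 662.6 kb from its start and none nearer than 187.4 kb. The sex of the dogs is not given in the labels used here, and peaks on the X chromosome made up 4.58% of the lymphoma and 4.10% of the healthy list in L, and 4.99% and 5.82% in M-H. Of the 6 clustered loci 4 were in all lists. They included a pair 0.623 kb apart, at 27874969 to 27875686 and 27876310 to 27877062. The first of the pair had 9.41 in lymphoma L, 6.19 in healthy L, 8.40 in lymphoma M-H and 7.64 in healthy M-H, and the second 12.2, 6.79, 13.7 and 7.64. The second stood at percentiles 76.2, 25.9, 73.1 and 40.9 of those lists. The locus at 662.6 kb had 6.40, 6.13, 11.3 and 8.75 in the same order, and that at 508.3 kb 9.93, 7.88, 12.6 and 6.74. Without peaks under 8-fold in either list, 1 of 5 DMD peaks of lymphoma L overlapped a healthy one, against 6 of 7 without the cut. In M-H it was 2 of 6, against 5 of 6. The same cut gave 50.8% over all lymphoma L peaks and 40.3% over all lymphoma M-H peaks. The locus at 588.3 kb was in both healthy lists (8.59 in L, 8.16 in M-H) and in lymphoma L (7.39), and was the only peak of the 5 genes in healthy M-H without a partner in lymphoma M-H. The highest fold of DMD in every list belonged to the locus at 1433.7 kb, 27010562 to 27011261, with 12.3, 9.41, 17.6 and 12.

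The far end of DMD held a locus in both lymphoma lists and no healthy list. It lay 2006.6 kb from the start at 26437563 to 26438508, was annotated as intron and flagged as CpG island shore, and had 10.0 in lymphoma L (percentile 60.7) and 12.9 in lymphoma M-H (percentile 68.7). At 2087.6 kb, healthy L alone had a peak annotated as coding sequence, 26356731 to 26357413, with 6.24 (percentile 10.9). This was the only 1 of the 119 peaks not annotated as intron. Peaks at 187.4 and 526.8 kb were also in healthy L alone, with 6.13 and 6.54.

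Loci limited to 1 group were thus of different kinds. Of the 44 loci, 6 were in lymphoma lists only and 8 in healthy lists only (13.6%, 6.40 to 26.7, and 18.2%, 9.51 to 32.0), against 23.9% and 24% of all loci, values inside both intervals. Of intronic loci outside islands and shores 16.1% were in lymphoma lists only and 36.1% in healthy lists only, the second above its interval. The start of LRP1B and the far locus of DMD were the 2 seen in both lymphoma lists, and both were flagged as CpG island shore. That flag was carried by 4 of the 44 loci, the others being the start of IMMP2L and the DMD locus at 508.3 kb, both in all 4 lists. By peaks it was 4 of 35 in lymphoma L, 2 of 38 in healthy L, 4 of 25 in lymphoma M-H and 2 of 21 in healthy M-H. Of all peaks 31.8%, 17.6%, 46.0% and 37.1% carried it in the same order. Over the genome, 18.8% of shore loci and 4.93% of loci outside islands and shores were in both lymphoma lists and no healthy list. The other 4 lymphoma-only loci, in IMMP2L and MACROD2, were in lymphoma L alone with folds of 6.40 to 7.88, all below the median of that list. The 8 healthy-only loci were all in healthy L alone, with folds of 6.13 to 9.81, and 7 of them were below the median of that list. None was in healthy M-H. Over the genome 15257 of the 16294 healthy-only loci were likewise in healthy L alone, and 5571 of the 16246 lymphoma-only loci were in lymphoma L alone. No peak of the 5 genes was flagged as CpG island or enhancer. Of all peaks, islands made up 4.46% in lymphoma L, 3.03% in healthy L, 8.30% in lymphoma M-H and 13.7% in healthy M-H. Enhancers made up 4.68%, 4.02%, 4.47% and 3.32% in the same order.

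Lymphoma peaks of these genes overlapped a healthy peak more often than lymphoma peaks did in general. For healthy peaks the intervals held the shares of all peaks. Set against intronic peaks outside islands and shores, the lymphoma M-H and healthy L intervals lay above, and the lymphoma L and healthy M-H intervals did not. In L, 6 of 35 lymphoma peaks had no overlapping healthy peak, where 36.9% of all lymphoma L peaks had none, and 9 of 38 healthy peaks had no overlapping lymphoma peak, where 35.2% of all had none. In M-H, 5 of 25 lymphoma peaks had no healthy partner, against 48.8% of all, and 1 of 21 healthy peaks had no lymphoma partner, against 9.58%. As shares, 82.9% (67.3 to 91.9) of the lymphoma L peaks and 80.0% (60.9 to 91.1) of the lymphoma M-H peaks overlapped a healthy one, against 63.1% and 51.2% of all peaks, both below their intervals. Without peaks under 8-fold in either list the M-H share was 59.1% (38.7 to 76.7) against 40.3% of all, which is inside that interval. The intronic peaks of the same lists outside islands and shores overlapped in 73.0% and 50.1%, the first inside the interval and the second below it. In the other direction the shares were 76.3% (60.8 to 87.0) in L and 95.2% (77.3 to 99.2) in M-H. All peaks, with 64.8% and 90.4%, lay inside both intervals, and of the intronic shares of 57.0% and 85.8% the first lay below its interval and the second inside it.

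Over intronic peaks of the genome, rank by fold enrichment moved with this overlap in every list. The peaks of these genes lay at median percentiles of 63.5 in lymphoma L, 62.7 in healthy L, 81.5 in lymphoma M-H and 68.7 in healthy M-H, where all intronic peaks lay at 48.4, 48.9, 50 and 49.9. In lymphoma L the 29 shared peaks had a median fold of 11.8 and the 6 others 7.26, and in healthy L 29 shared peaks had 9.41 and 9 others 6.54. In lymphoma M-H the 20 shared peaks had a median of 16.2 and the 5 others 12.9, which is still at percentile 68.7 of that list, and in healthy M-H the single unshared peak had 8.16 against a median of 9.65. Among all intronic lymphoma L peaks outside islands and shores, 89.0% of those at or above the list median overlapped a healthy peak and 59.2% of those below it. For the intronic peaks of the 5 genes, shores again left out, it was 20 of 20 and 7 of 11. In healthy L the corresponding shares were 76.3% and 39.7%, with 20 of 22 and 7 of 13 for the 5 genes. In lymphoma M-H they were 77.0% and 24.8%, with 16 of 17 and 2 of 4, and in healthy M-H 97.5% and 72.6%, with 13 of 14 and 5 of 5. The part of rank in the higher overlap was not tested.

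**Figure D4:**
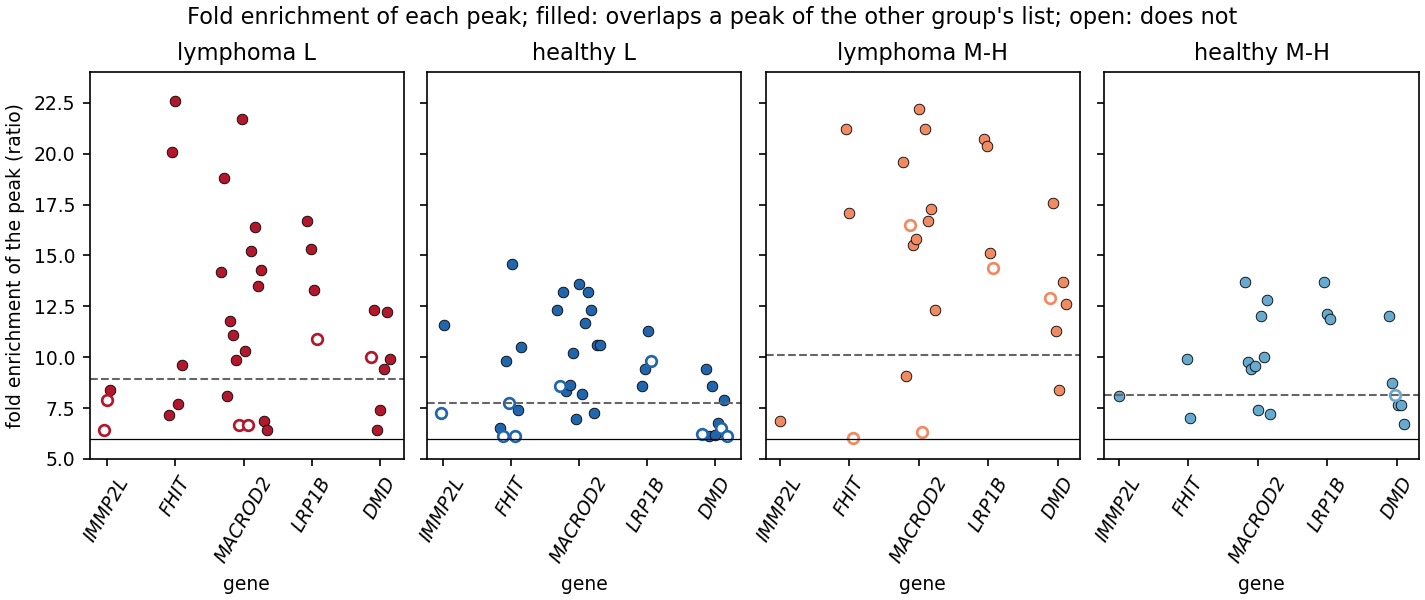
Fold enrichment (vertical axis, a ratio) of each peak of the 5 genes in each list; filled dots overlap a peak of the other group in the list of the same library name, open dots do not, the dashed line is the median of the whole list and the solid line the lowest fold listed. In lymphoma L the 29 filled dots have a median of 11.8 and the 6 open dots 7.26.

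Within healthy cells the peaks of these genes recurred between L and M-H more often than peaks in general. Within lymphoma the intervals held the shares of all peaks, but for L peaks not that of intronic ones. All 21 healthy M-H peaks overlapped a healthy L peak (84.5 to 100% by the Wilson interval), where 36.7% of all healthy M-H peaks had none. Of the 38 healthy L peaks 17 had no M-H partner, where 71.6% of all had none, so that 55.3% (39.7 to 69.9) of them overlapped against 28.4% of all. In lymphoma 1 of 25 M-H peaks had no L partner, where 17.9% of all had none, and 11 of 35 L peaks had no M-H partner, where 36.8% of all had none. The overlapping shares of 96.0% (80.5 to 99.3) and 68.6% (52.0 to 81.4) hold the 82.1% and 63.2% of all peaks within their intervals. Of intronic peaks outside islands and shores, 91.8% in lymphoma M-H and 45.8% in lymphoma L overlapped, the first inside its interval and the second below it. In healthy cells the intronic shares were 77.2% in M-H and 17.5% in L, both below their intervals. The lymphoma M-H peak without an L partner was at the MACROD2 locus at 1840.4 kb. LRP1B had all 4 of its lymphoma L peaks in M-H as well, and DMD 6 of 7, while FHIT had 3 of 5, MACROD2 10 of 16 and IMMP2L 1 of 3.

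For their length the 5 genes held few peaks. Counting from the start to the farthest assigned peak, IMMP2L reached over 0.60 Mb, FHIT 1.38, LRP1B 1.48, MACROD2 1.89 and DMD 2.09. The ends of the genes are not given in the lists, so these are lower bounds on length. In lymphoma L the stretch held 9.52 peaks per Mb in MACROD2, 5.03 in IMMP2L, 3.63 in FHIT, 3.35 in DMD and 2.71 in LRP1B, counting peaks of any gene name. Their chromosomes as a whole had 23.5 peaks per Mb (chromosome 24), 15.0 (14), 24.6 (20), 16.9 (X) and 14.5 (19) in the same list. In all 20 pairs of a gene and a list the stretch had fewer peaks per Mb than its chromosome. In 18 of the 20 it also had fewer than the 1 Mb on either side. The 2 exceptions were MACROD2 in M-H, with 6.88 against 6.50 in lymphoma and 5.29 against 3.50 in healthy cells. LRP1B also lay in a sparse neighbourhood, with 4.0 peaks per Mb in its flanks in lymphoma L and 3.50 in healthy L.

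Of 189 genes with an assigned peak at least 500 kb from the start, the 5 genes were among those with few loci per Mb. MACROD2 had 9.0 loci per Mb over all lists, IMMP2L 6.70, FHIT 5.81, DMD 4.79 and LRP1B 3.39, where the median was 14.3. By this density they ranked 135, 160, 166, 173 and 182 from the top, while by reach DMD ranked 2, MACROD2 5, LRP1B 12, FHIT 16 and IMMP2L 130. Of 24 symbols of other large genes, many of them known at fragile sites, 23 had a peak, and 21 of these reached 500 kb. The 21 genes' densities ran from 2.74 (DPYD) to 69.4 (PTPRN2) with a median of 14.1 loci per Mb. CSMD1 with 82 loci, PTPRN2 with 46 and WWOX with 45 had the most loci of these listed genes. WWOX, another fragile-site tumour suppressor, had 47.6 loci per Mb over 0.94 Mb, and 13.3% (6.26 to 26.2) of its loci were in all 4 lists. PTPRN2 had 2.17% (0.385 to 11.3) in all 4, and the 23 genes together 20.6% of 481 loci. Among 165 such far-reaching genes with 5 or more loci, 10 had a higher share of loci in all 4 lists than LRP1B, 14 than DMD, 21 than MACROD2 and 63 than FHIT, where the median was 18.2%. The high share was not particular to these genes, since CTNNA3 had 9 of 10 loci in all 4 lists, CCSER1 8 of 12 and DLG2 8 of 13. These 3, and DPYD, were named after their values were seen.

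**Figure D5:**
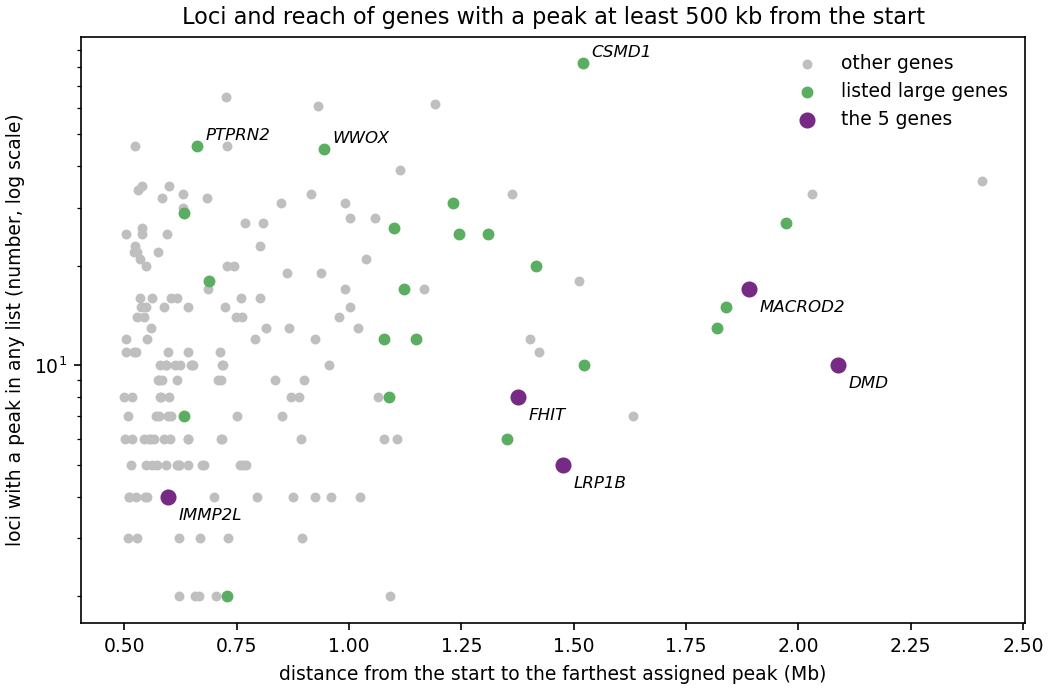
Number of loci with a peak in any list (vertical axis, log scale) by the distance from the start to the farthest assigned peak (Mb) for 189 genes with a peak at least 500 kb from the start. The 5 genes (purple) lie low for their reach, from 4 loci in IMMP2L to 17 in MACROD2, whereas CSMD1, PTPRN2 and WWOX have 82, 46 and 45.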

How the data were processed

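Methylated DNA was captured and sequenced as paired ends, per the labels' protocols. The submitters' processing notes name BWA, MACS2 and the build CanFam3.1, but no versions or settings. For each group and library name the authors deposited 1 pooled list of peaks with positions, a gene symbol, the distance to its start, flags and the fold enrichment, a ratio; the background of that ratio and how dogs were pooled are not stated. Peak starts were read as 0-based (in the list with a length column all 34939 lengths equal end minus start) and are printed 1-based. Starts of genes were recovered from peak position and distance, with 1 start for each of the 5 genes. 9 rows had misplaced gene columns, and their peaks were kept with no gene name. In lymphoma L 54 symbols had become dates, of which 51 were restored from the description.

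Overlaps of at least 1 bp, joined loci, promoter hits and densities were computed with Python 3.11.15 and pandas 2.3.3, and Wilson intervals (95%) with scipy 1.17.1. The overlap and promoter steps were tested on simulated peaks. Named peaks lie within 5 kb of a start, are the highest of a gene in a list, are in all 4 lists, or are in 1 group only. The last kind, and loci described for a difference between lists, were added after values were seen. The members and the list of large genes were chosen with earlier results of these data known. Alternatives were stricter folds, equal list lengths, other overlaps and other promoters. No sequence was used here.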

Additional observations from a re-analysis of the deposited data

How the results depend on the processing

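Of 36 alternatives to the pooled shares and promoter counts, 27 stayed within the counting interval, or within 1.5 times the count. Without peaks under 12-fold the lymphoma share of the peaks of the 5 genes was 70.0% in L (47.9% without a cut) and 76.0% in M-H (54.3%), where all peaks of the lists under the same cut gave 76.3% and 84.4%. Without peaks under 8-fold the share of lymphoma M-H peaks that overlap a healthy one was 59.1% (38.7 to 76.7; 80.0% without a cut), where the same cut gave 40.3% over all lymphoma M-H peaks and 45.1% over intronic ones outside islands and shores. At that cut both values lie inside the interval of the 5 genes. The count of genes covered at the promoter in healthy only went from 1, IMMP2L, to 0 in L and to 0 in M-H, under each of promoters of 500 bp either side, promoters of 2 kb upstream to 500 bp downstream, and absence over 5 kb. Of 117 alternatives for single genes, 15 left the interval, 14 of them under these cut-offs on fold.

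No paired analysis was possible because the lists pool the dogs, and for the same reason leaving out 1 dog was not run. Depth per library is unknown, and single genes rest on 1 to 16 peaks per list.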
